A study of Rattus norvegicus with 14 samples.

Results

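Prostaglandin synthesis was followed through 4 genes, chosen by symbol from a table of 17312 genes: the cyclooxygenases Ptgs2 and Ptgs1, the prostaglandin E synthase Ptges and the prostacyclin synthase Ptgis. All 4 had a row in both deposited tables, and 3 passed the filter on low values used for testing. Ptges did not pass it. The cells, smooth muscle of the rat aorta, which contract to set the width of the vessel, were bought from a supplier, grown in culture and kept without serum for 24 h. RNA was sequenced from 14 libraries in 5 groups. In the JQ1 plus PDGF groups (3 libraries at 2 h and 3 at 24 h), cells received JQ1 at 500 nM for 3 h and then platelet-derived growth factor (PDGF) at 925 ng/ml for 2 h or 24 h. In the PDGF groups (3 libraries at 2 h and 3 at 24 h), cells received PDGF alone, and the 2 unstimulated libraries were made at 0 h. PDGF is a growth factor for smooth muscle cells, and JQ1 is a small molecule that displaces BET proteins, readers of acetylated histones, from chromatin. No strain, sex or donor number was given, and unstimulated cells at 2 h or 24 h and cells with JQ1 alone were not analysed here. Comparisons with 0 h therefore hold both PDGF and time in culture, and they share the same 2 unstimulated libraries.

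Prostaglandins are made from arachidonic acid, a fatty acid that phospholipases release from membranes. Cyclooxygenases turn it into an unstable precursor, and end-point synthases turn the precursor into prostaglandin E, prostacyclin or other prostanoids, which leave the cell and act on receptors. Ptgs1 is commonly described as the constitutive cyclooxygenase and Ptgs2 as the inducible one. In the vessel wall, prostacyclin relaxes smooth muscle and restrains platelets, whereas thromboxane does the opposite.

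Values are FPKM, fragments scaled to transcript length and library size, so levels can be set beside each other between genes. The normalised FPKM carry an adjustment to spiked-in control RNA and were used for the tests, and the unnormalised FPKM are named where they are used. An unnormalised FPKM of 0 stands at about 0.1 in the normalised table, so normalised levels near 0.1 are at its lower end. Log2 differences are of log2(normalised FPKM + 1) with their standard errors (SE), which understate the change of low genes. Calls had a limma p under 0.05 after Benjamini-Hochberg adjustment over the 10133 genes tested. The libraries held 9901 to 11503 genes above 0, and their depth is unknown. The smooth muscle markers were abundant, with summed normalised FPKM of 6 contractile genes between 9689 and 11727 in unstimulated cells. Markers of other cell types were partly present. Of the fibroblast list, Lum averaged 113 and Pdgfra 9.46 normalised FPKM in unstimulated cells. The list's sum there was 121 to 128, most of it Lum. Of the leukocyte list, Cd14 averaged 14.7 in unstimulated cells. Listed at 0 in all 14 libraries were 1 of 5 endothelial (Cdh5), 1 of 4 leukocyte (Ptprc) and 1 of 5 fibroblast markers (Dpt). Under 1 unnormalised FPKM in all 14 were also the endothelial genes Pecam1, Kdr and Vwf, the leukocyte gene Itgam and the fibroblast gene Dcn. Bulk RNA cannot tell fewer cells of a type from less RNA per cell.

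Ptgs2 had the largest PDGF response of the 3 tested members at 2 h. It had 107, 146 and 136 normalised FPKM in PDGF 2 h cells, against 3.46 and 2.29 in unstimulated cells. The groups lay far apart, and the lowest PDGF 2 h library was above every other group. The group means differed 45.0-fold. Ptgs2 rose by a log2 difference of 5.08 ± 0.23 (SE; limma adjusted p = 1.2e-10), rank 19 from the top of 10133 genes.

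No early change of Ptgs1 passed the test. Its normalised FPKM were 0.462, 0.436 and 0.524 in PDGF 2 h cells, against 0.445 and 0.284 in unstimulated cells. The groups overlapped, and all 5 values were near the lower end of the scale. The log2 difference was 0.11 ± 0.23 (95% interval -0.39 to 0.61; limma adjusted p = 0.759), so a change was not detectable at these levels.

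The promoters of these isoenzyme genes are shown because their time courses differed. RefSeq (build GRCr8, which is not the build used for the reads) gives 300 bases each, from 250 before the start of the gene to 50 after it. The Ptgs2 window is chr13:64713813-64714112 and the Ptgs1 window is chr3:39981169-39981468, both on the plus strand. Capitals mark matches to the motifs named after the sequences.
Ptgs2 promoter: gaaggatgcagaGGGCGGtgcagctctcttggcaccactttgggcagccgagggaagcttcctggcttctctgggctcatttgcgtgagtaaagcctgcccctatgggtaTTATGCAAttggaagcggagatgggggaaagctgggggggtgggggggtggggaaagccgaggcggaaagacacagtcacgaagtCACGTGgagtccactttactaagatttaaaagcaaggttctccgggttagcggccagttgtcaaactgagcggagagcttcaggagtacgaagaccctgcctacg
Ptgs1 promoter: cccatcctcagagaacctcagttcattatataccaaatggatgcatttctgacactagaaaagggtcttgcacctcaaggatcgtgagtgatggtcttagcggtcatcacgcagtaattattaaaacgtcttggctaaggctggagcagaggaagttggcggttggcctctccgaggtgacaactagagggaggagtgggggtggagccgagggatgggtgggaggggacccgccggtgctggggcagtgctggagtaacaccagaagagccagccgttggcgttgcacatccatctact

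Both strands were searched for 8 motifs: the TATA box TATAAA, the cAMP response element core CGTCA, the AP-1 site TGANTCA, the E-box CACGTG, the GC box GGGCGG, the C/EBP site TTNNGNAA, the CArG box and the NF-kappaB site. In the Ptgs2 window, the GC box began at base -238, a C/EBP match (TTATGCAA) at -140 and the E-box at -55, counted from the start of the gene, and none overlapped another. Of the 33469 rat promoters in the table, 33.1% held a GC box, 41.3% a C/EBP match and 6.4% this E-box. The Ptgs1 window held none of the 8, and its GC content was 54.3%, against 56.7% for Ptgs2 and a median of 51.7% over all promoters. No binding was measured in these libraries, and the motifs are letters only.

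By 24 h the cyclooxygenases had moved in opposite directions relative to 2 h. Ptgs2 had 13.6, 14.2 and 21.1 normalised FPKM in PDGF 24 h cells, against 107, 146 and 136 in PDGF 2 h cells. It fell by 2.93 ± 0.20 relative to 2 h (log2, SE; limma adjusted p = 2.6e-08) and stood at 12.6% of its 2 h mean. Its 24 h level nonetheless remained above that of unstimulated cells, by a log2 difference of 2.15 ± 0.23 (SE; limma adjusted p = 3.53e-06) and 5.67-fold in the means.

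Ptgs1 had 8.71, 6.70 and 6.65 normalised FPKM in PDGF 24 h cells, against 0.445 and 0.284 in unstimulated cells. Every PDGF 24 h library was above every library of the other groups. The increase over unstimulated cells was 2.61 ± 0.23 (log2, SE; limma adjusted p = 7.48e-07), rank 75 of 10133 genes, and the means differed 20.2-fold. Over PDGF 2 h it was 2.49 ± 0.21 (log2, SE; limma adjusted p = 2.27e-07). Ptgs1 passed the filter through the 24 h groups alone, since its 6 values of 1 or more were the 6 at 24 h. With a pseudocount of 0.1 in place of 1, its difference from unstimulated cells was 4.02. Markers moved beside it: 5 of the 6 contractile genes fell, where 4.85% of all genes tested fell. Their summed normalised FPKM was 1887 to 2136 in PDGF 24 h cells against 9689 to 11727 in unstimulated cells. The endothelial gene Tek rose, at 2.11 ± 1.20 normalised FPKM in PDGF 24 h cells (SD, n = 3) against 0.184 ± 0.119 in unstimulated cells (SD, n = 2). Tek was the 1 tested gene of 5 endothelial markers, and it passed the filter through the PDGF groups alone. Cdh5 was listed at 0, and Pecam1, Kdr and Vwf were under 1 unnormalised FPKM in all libraries. Cd14 of the leukocyte list rose, at 57.9 ± 12.5 in PDGF 24 h cells (SD, n = 3) against 14.7 ± 2.7 in unstimulated cells (SD, n = 2), as did Pdgfra of the fibroblast list, at 24.0 ± 2.0 against 9.46 ± 0.33. Cd68, the other tested leukocyte gene, and the fibroblast genes Lum and Pi16 did not pass. The part of these markers in the Ptgs1 result was not tested.

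**Figure D1:**
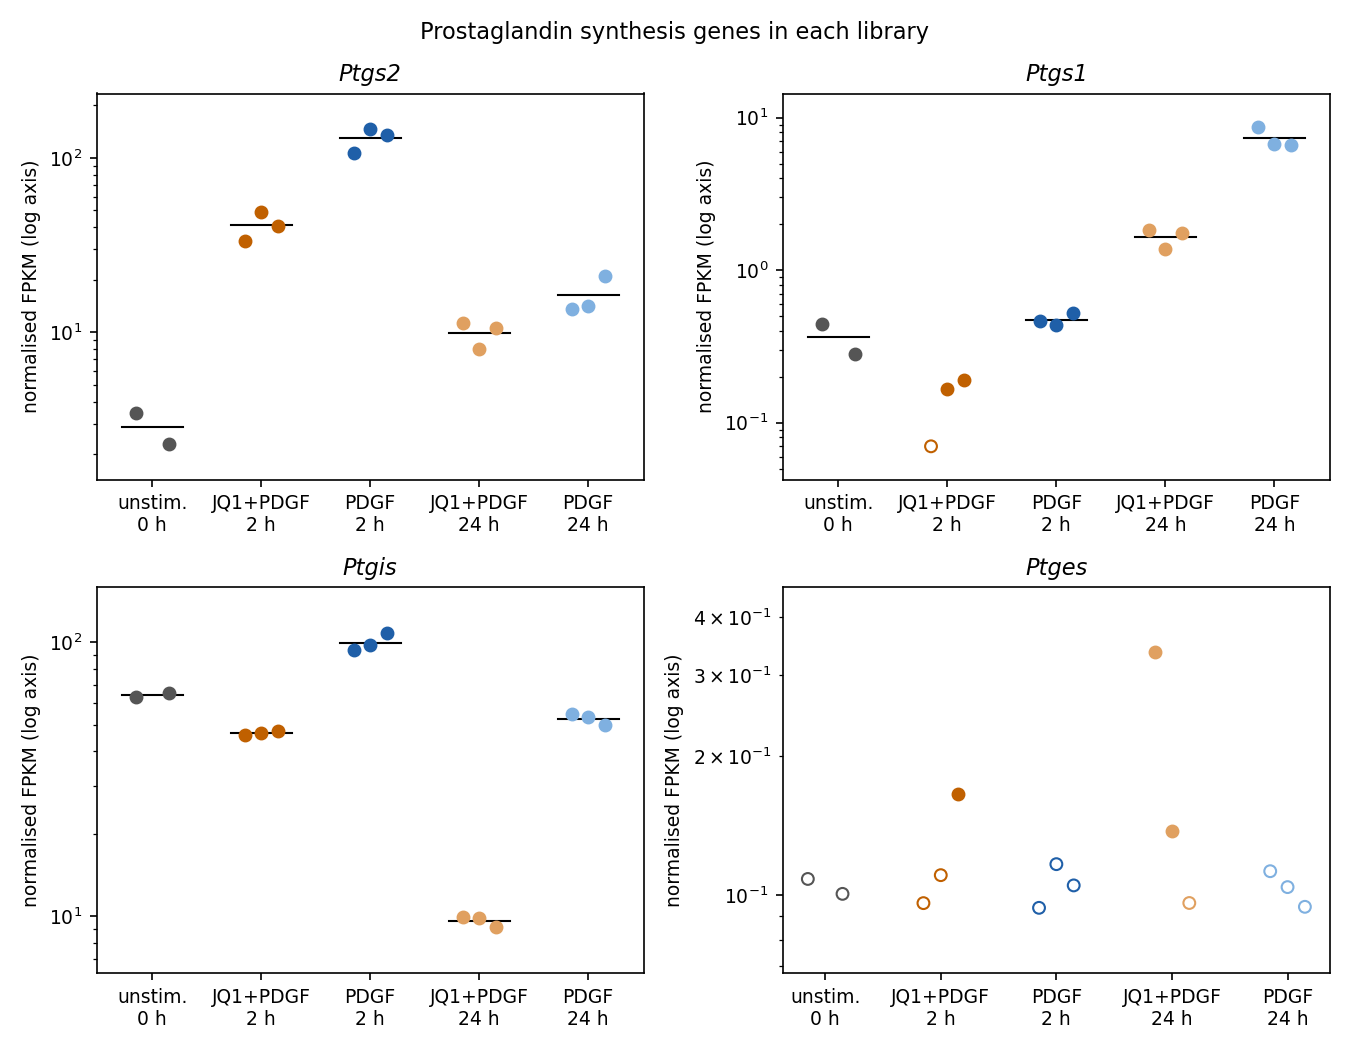
Normalised FPKM (log axis) of Ptgs2, Ptgs1, Ptgis and Ptges in each library, by group (unstim., unstimulated); points are libraries, horizontal bars are group means where no library is listed at 0, and open circles are libraries with an unnormalised FPKM of 0. Ptgs2 peaks in PDGF 2 h cells at 107 to 146, Ptgs1 in PDGF 24 h cells at 6.65 to 8.71, and Ptges is listed at 0 in 11 of 14 libraries.

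The make-up of cyclooxygenase RNA shifted with time. Ptgs1 made up 0.428, 0.0876 and 0.373% of the summed unnormalised FPKM of both genes in PDGF 2 h cells and 33.6, 31.5 and 27.7% in PDGF 24 h cells, against 9.28 and 8.69% in unstimulated cells. Its share was thus lowest at 2 h and highest at 24 h with PDGF, with no overlap between these groups. The sum of both genes was 117, 142 and 123 unnormalised FPKM in PDGF 2 h cells and 14.6, 15.9 and 21.5 in PDGF 24 h cells, against 3.79 and 2.45 in unstimulated cells. On the normalised scale, Ptgs2 exceeded Ptgs1 by 231, 336 and 259 times in PDGF 2 h cells and by 1.56, 2.13 and 3.18 times in PDGF 24 h cells, against 7.79 and 8.08 times in unstimulated cells. The log2 ratio of PDGF 24 h cells minus that of PDGF 2 h cells was -6.96, and minus that of unstimulated cells it was -1.86 (two-sided exact permutation p = 0.1 for each). At these group sizes 0.1 is the smallest p the test allows, so it cannot reach 0.05.

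**Figure D2:**
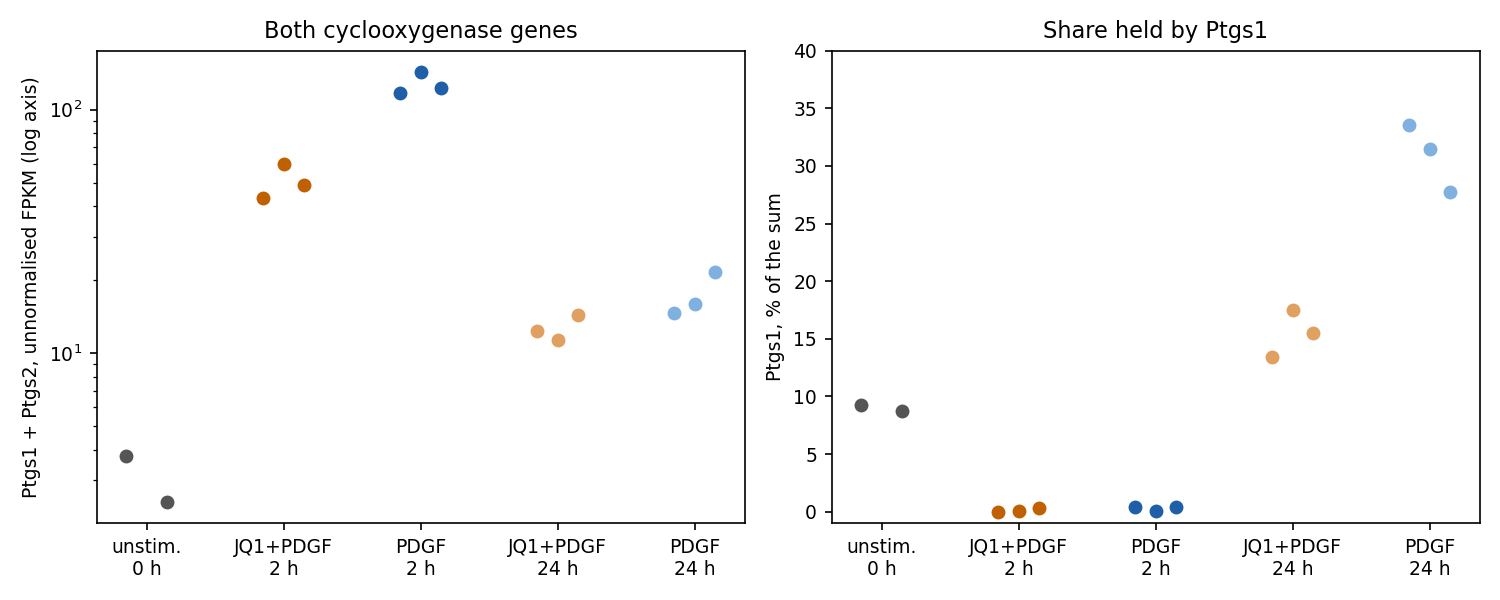
Summed unnormalised FPKM of Ptgs1 and Ptgs2 (left, log axis) and Ptgs1 as a percentage of that sum (right) in each of 14 libraries, by group (unstim., unstimulated). The sum peaks in PDGF 2 h cells at 117 to 142, whereas for the share the PDGF 24 h libraries stand highest at 27.7 to 33.6%, followed by JQ1 plus PDGF 24 h at 13.4 to 17.5% and unstimulated cells at 8.69 to 9.28%, and every 2 h library lies under 1%.

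Ptgis, which makes prostacyclin, was abundant before stimulation, and its PDGF difference at 2 h was smaller than that of Ptgs2. It had 93.7, 97.6 and 108 normalised FPKM in PDGF 2 h cells, against 63.3 and 65.4 in unstimulated cells. The groups did not overlap, and Ptgis rose by 0.62 ± 0.11 (log2, SE; limma adjusted p = 0.00067), or 1.55-fold in the means. At 24 h it had 54.9, 53.3 and 49.8 normalised FPKM with PDGF. Relative to PDGF 2 h it fell by 0.91 ± 0.10 (log2, SE; limma adjusted p = 3.58e-06). Against unstimulated cells the difference was -0.29 ± 0.11 (log2, SE; 95% interval -0.53 to -0.05; limma adjusted p = 0.0518), which missed the threshold. After median centring of the unnormalised FPKM, that difference was -0.74 and passed it (limma adjusted p = 4.11e-05). In unstimulated cells Ptgis stood at 64.4 ± 1.5 normalised FPKM, against 2.88 ± 0.83 for Ptgs2 and 0.364 ± 0.114 for Ptgs1 (SD, n = 2).

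Ptges, the inducible microsomal prostaglandin E synthase, was at the limit of these data. Its unnormalised FPKM was listed at 0 in 11 of 14 libraries, among them all PDGF and all unstimulated ones. The 3 libraries above 0 were JQ1 plus PDGF 2 h library 2 at 0.101, JQ1 plus PDGF 24 h library 1 at 0.0614 and library 0 at 0.230. Without the filter, limma passed it in 0 of the 8 comparisons, with adjusted p from 0.24 to 1.0. A listed 0 may also be a failed estimate, so absence of the transcript was not shown. Ptges is not the only prostaglandin E synthase gene. Ptges2 and Ptges3, named after their values were seen, were above 0 in all 14 libraries. Their median unnormalised FPKM were 7.78 and 186.

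Set against all genes tested, 2 of the 3 tested members rose and 0 fell at 2 h with PDGF, where 17.7% of all genes rose and 12.7% fell. At 24 h against 0 h 2 of 3 rose and 0 fell, where 37.7% of all genes rose and 4.85% fell. Between 24 h and 2 h 1 rose and 2 fell, where 44.5% of all genes rose and 11.8% fell. Both 24 h counts of rises include Ptgs1, which passed the filter through the 24 h groups alone. With 3 genes these shares say nothing of the group as a whole. The median of all tested genes lay at 0.01 (log2) for PDGF 2 h against 0 h, at 0.41 for PDGF 24 h against 0 h and at 0.39 for PDGF 24 h against 2 h, so the late values stand on a raised background. Relative to that median, the 24 h differences from 0 h were 1.74 for Ptgs2, 2.20 for Ptgs1 and -0.70 for Ptgis.

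The JQ1 groups show how these levels stood when JQ1 was given before PDGF. BET displacement itself was not measured in these libraries. Early, Ptgs2 and Ptgis were lower with JQ1. Ptgs2 had 33.5, 49.1 and 40.7 normalised FPKM in JQ1 plus PDGF 2 h cells, against 107, 146 and 136 in PDGF 2 h cells. No library overlapped, and the mean stood at 31.7% of that with PDGF alone. Ptgs2 fell by 1.64 ± 0.20 (log2, SE; limma adjusted p = 1.84e-05). It was still above unstimulated cells, by 3.44 ± 0.23 (log2, SE; limma adjusted p = 1.23e-08) and 14.3-fold in the means.

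Ptgis had 45.8, 46.8 and 47.3 normalised FPKM in JQ1 plus PDGF 2 h cells, against 93.7, 97.6 and 108 in PDGF 2 h cells. It fell by 1.08 ± 0.10 (log2, SE; limma adjusted p = 1.61e-06), to 46.7% of the mean with PDGF alone. With JQ1 it was also below unstimulated cells, by a log2 difference of -0.46 ± 0.11 (SE; limma adjusted p = 0.00368). That last call was lost after median centring (-0.19; limma adjusted p = 0.0927). Beside these 2 h decreases, 2 of 3 tested fibroblast markers fell, Pdgfra and Lum, where 34% of all genes tested fell. The list sums were 74.9 to 83.9 normalised FPKM in JQ1 plus PDGF 2 h cells and 99.7 to 119.7 in PDGF 2 h cells. In unnormalised FPKM these sums overlapped, at 90.2 to 108 in JQ1 plus PDGF 2 h cells and 102 to 115 in PDGF 2 h cells. Cd14 fell too, at 4.38 ± 1.21 in JQ1 plus PDGF 2 h cells and 19.4 ± 3.8 in PDGF 2 h cells (SD, n = 3 each), and Cd68 did not pass. Their part in the 2 h results was not tested.

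For Ptgs1 at 2 h, the values were 0.0700, 0.168 and 0.190 normalised FPKM in JQ1 plus PDGF cells, against 0.462, 0.436 and 0.524 in PDGF cells. The groups did not overlap here, but library 0 with JQ1 was listed at 0 before normalisation, and the unnormalised groups overlapped. The log2 difference was -0.37 ± 0.21 (SE; 95% interval -0.82 to 0.08; limma adjusted p = 0.175). It passed with a pseudocount of 0.1, at -1.28 (limma adjusted p = 0.0178), so the call at this level turns on the pseudocount. Without the mean trend the difference of -0.37 passed too (limma adjusted p = 0.0397). Against unstimulated cells, Ptgs1 in JQ1 plus PDGF 2 h cells differed by -0.25 ± 0.23 (log2, SE; limma adjusted p = 0.394).

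At 24 h Ptgis had the largest JQ1 difference of the 3 tested members. It had 9.90, 9.85 and 9.11 normalised FPKM in JQ1 plus PDGF 24 h cells, against 54.9, 53.3 and 49.8 in PDGF 24 h cells and 63.3 and 65.4 in unstimulated cells. The JQ1 libraries lay close together and far under all others. Ptgis fell by 2.34 ± 0.10 relative to PDGF alone (log2, SE; limma adjusted p = 6.21e-11), to 18.3% of its mean. Relative to unstimulated cells it fell by 2.62 ± 0.11 (log2, SE; limma adjusted p = 5.71e-11). Smooth muscle markers moved in the same direction: their summed normalised FPKM was 362 to 531 in JQ1 plus PDGF 24 h cells and 1887 to 2136 in PDGF 24 h cells, and 6 of 6 fell. At 2 h, 1 of the 6 rose and 1 fell, with sums of 13794 to 14722 in JQ1 plus PDGF cells and 11143 to 14726 in PDGF cells. In unnormalised FPKM these 2 h sums did not overlap, at 17799 to 18179 in JQ1 plus PDGF cells and 11859 to 12566 in PDGF cells. The fibroblast list also fell at 24 h, 3 of its 3 tested genes, with summed normalised FPKM of 5.54 to 7.51 in JQ1 plus PDGF 24 h cells and 132 to 150 in PDGF 24 h cells. Of all genes tested, 48.5% fell with JQ1 at 24 h. The part of these lists in the Ptgis result was not tested.

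Ptgs1 at 24 h had 1.84, 1.38 and 1.75 normalised FPKM in JQ1 plus PDGF cells, against 8.71, 6.70 and 6.65 in PDGF cells. No library overlapped, and the mean with JQ1 was 22.6% of that with PDGF alone. Ptgs1 fell by 1.65 ± 0.21 (log2, SE; limma adjusted p = 9.11e-06), and its difference was -1.09 after median centring (limma adjusted p = 0.000177). It remained above unstimulated cells by 0.96 ± 0.23 (log2, SE; limma adjusted p = 0.00388), or by 1.94 with a pseudocount of 0.1. Ptgs1 is also known from endothelial cells. The summed unnormalised FPKM of 5 endothelial markers was 0.0637 to 0.219 in JQ1 plus PDGF 24 h cells, 0.971 to 1.67 in PDGF 24 h cells and 0 to 0.211 in unstimulated cells. Tek gave most of this sum, whereas Cdh5 was listed at 0 and Pecam1, Kdr and Vwf were under 1 FPKM in all 14 libraries. Of the 2 tested leukocyte genes, Cd14 fell and Cd68 rose. Cd14 stood at 4.20 ± 0.74 normalised FPKM in JQ1 plus PDGF 24 h cells and 57.9 ± 12.5 in PDGF 24 h cells (SD, n = 3 each). Cd68 stood at 7.77 ± 4.60 in JQ1 plus PDGF 24 h cells and 0.633 ± 0.379 in PDGF 24 h cells (SD, n = 3 each), and Ptprc was listed at 0. The part of either list in the Ptgs1 result was not tested.

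The late JQ1 effect on Ptgs2 was small and depended on the scale. It had 11.3, 7.99 and 10.7 normalised FPKM in JQ1 plus PDGF 24 h cells, against 13.6, 14.2 and 21.1 in PDGF 24 h cells. These groups did not overlap, and Ptgs2 fell by 0.64 ± 0.20 (log2, SE; limma adjusted p = 0.0143), to 61.2% of the mean. In unnormalised FPKM they did overlap, with 10.6, 9.32 and 12.1 in JQ1 plus PDGF 24 h cells against 9.71, 10.9 and 15.6 in PDGF 24 h cells. After median centring, which stays close to these unnormalised values, the difference was -0.14 (limma adjusted p = 0.559). The call was also lost without PDGF 24 h library 2 (-0.45; limma adjusted p = 0.0856) and without JQ1 plus PDGF 24 h library 1 (-0.50; limma adjusted p = 0.0767). With JQ1, Ptgs2 at 24 h was above unstimulated cells by 1.51 ± 0.23 (log2, SE; limma adjusted p = 6.45e-05).

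**Figure D3:**
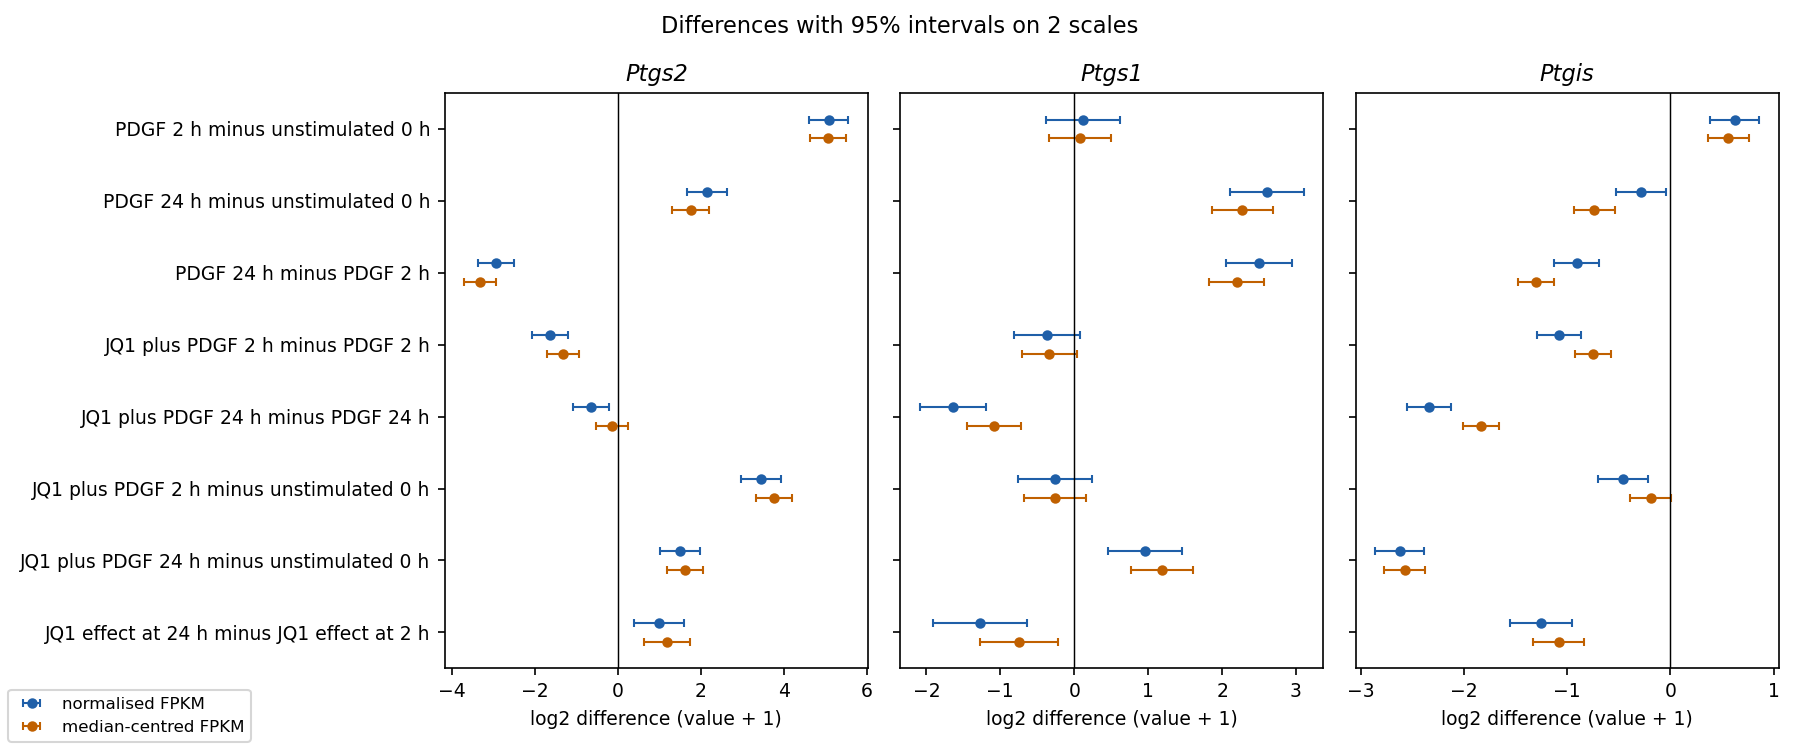
Log2 differences with 95% intervals from limma for Ptgs2, Ptgs1 and Ptgis in 8 comparisons, on the normalised scale and on the median-centred scale; the vertical line marks 0. Ptgs2 in JQ1 plus PDGF 24 h against PDGF 24 h lies at -0.64 on the normalised scale and -0.14 on the median-centred one, while Ptgis in the same comparison is at -2.34 and -1.84.

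The balance of the cyclooxygenases was also compared with and without JQ1. Ptgs2 exceeded Ptgs1 by 6.14, 5.78 and 6.08 times in JQ1 plus PDGF 24 h cells, against 1.56, 2.13 and 3.18 times in PDGF 24 h cells. The log2 ratio was 1.45 higher with JQ1 (two-sided exact permutation p = 0.1, the smallest the test allows), and the groups did not overlap. Ptgs1 made up 13.4, 17.5 and 15.5% of the summed unnormalised FPKM in JQ1 plus PDGF 24 h cells, against 33.6, 31.5 and 27.7% in PDGF 24 h cells. At 2 h the sum of both genes was 43.2, 59.8 and 49.1 unnormalised FPKM in JQ1 plus PDGF cells, against 117, 142 and 123 in PDGF cells, nearly all of it Ptgs2 in both. The normalised 2 h ratio was 293 and 214 in the 2 JQ1 plus PDGF libraries with Ptgs1 above 0, against 231, 336 and 259 in PDGF cells. In unnormalised FPKM it was 1495 and 299, against 233, 1141 and 267, so the 2 h ratios depended on the scale. The normalised log2 difference was -0.12 (two-sided exact permutation p = 0.7), with groups that overlapped, and it was 0.69 in unnormalised FPKM.

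With JQ1, 2 of the 3 tested members fell and 0 rose at 2 h, where 34% of all genes fell and 7.24% rose. At 24 h 3 of 3 fell, where 48.5% of all genes fell and 4.61% rose. In the comparison of JQ1 plus PDGF 2 h with unstimulated cells 1 member was higher and 1 lower, beside 13.2% and 33.7% of all genes. At 24 h 2 were higher and 1 lower than unstimulated cells, beside 17.6% and 23.4% of all genes. Ptgs1, counted in both 24 h comparisons, passed the filter through the 24 h groups alone. The median of all tested genes lay at -0.29 (log2) for JQ1 at 2 h and at -0.48 for JQ1 at 24 h on the normalised scale. Relative to it, the 24 h differences were -1.85 for Ptgis, -1.16 for Ptgs1 and -0.16 for Ptgs2. At 2 h they were -1.34 for Ptgs2, -0.79 for Ptgis and -0.08 for Ptgs1.

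Whether the JQ1 effect differed between the times was tested as an interaction, the JQ1 difference at 24 h minus that at 2 h. Ptgis had an interaction of -1.26 ± 0.14 (log2, SE; limma adjusted p = 1.57e-05), a deeper decrease late than early. Ptgs1 had -1.28 ± 0.30 (log2, SE; limma adjusted p = 0.00601), or -0.75 after median centring (limma adjusted p = 0.0339), and -0.80 with a pseudocount of 0.1, where it did not pass (limma adjusted p = 0.337). Ptgs2 went the other way at 0.99 ± 0.29 (log2, SE; limma adjusted p = 0.0205), its decrease being deeper early. The Ptgs2 call was lost without PDGF 2 h library 1 and PDGF 24 h library 0 together (0.79; limma adjusted p = 0.0878), and in 4 of the 14 fits that left out 1 library. These were the fits without JQ1 plus PDGF 2 h library 0, JQ1 plus PDGF 24 h library 2, PDGF 24 h library 0 or PDGF 24 h library 1, with limma adjusted p from 0.0503 to 0.0551. Of all genes tested, 4.82% had a higher and 17.5% a lower interaction, beside 1 and 2 members.

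The order of levels over the 5 groups differed for each gene. For Ptgs2 it ran, from the highest, PDGF 2 h, JQ1 plus PDGF 2 h, PDGF 24 h, JQ1 plus PDGF 24 h and unstimulated, with no overlap between neighbours on the normalised scale. For Ptgs1 it ran PDGF 24 h, JQ1 plus PDGF 24 h, PDGF 2 h, unstimulated and JQ1 plus PDGF 2 h, and PDGF 2 h overlapped unstimulated. For Ptgis it ran PDGF 2 h, unstimulated, PDGF 24 h, JQ1 plus PDGF 2 h and JQ1 plus PDGF 24 h, with no overlap. In unnormalised FPKM, JQ1 plus PDGF 2 h at 56.8 to 59.0 stood above PDGF 24 h at 36.6 to 41.2 in that order.

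Genes with the most similar profile were found by Pearson correlation of log2(normalised FPKM + 1) over the 14 libraries, among 6972 genes with a group mean of at least 10. This is a description over libraries that share their groups. For Ptgs2 they were Ptpn12, a tyrosine phosphatase (r = 0.988), Lif, a cytokine of the interleukin-6 family (r = 0.985), and Bcl10, a signalling adaptor (r = 0.984). Lif averaged 102 ± 19.5 normalised FPKM in PDGF 2 h cells and 0.940 ± 0.864 in unstimulated cells (SD, n = 3 and 2). For Ptgs1 they were Serpine2, a secreted protease inhibitor (r = 0.989), Oaf (r = 0.985) and Fam214a (r = 0.983). Serpine2 averaged 36.8 ± 2.5 normalised FPKM in JQ1 plus PDGF 24 h cells and 115 ± 7.1 in PDGF 24 h cells (SD, n = 3 each). For Ptgis they were Col27a1, a fibrillar collagen (r = 0.989), Tnfrsf11b, the decoy receptor osteoprotegerin (r = 0.988), and Mcam, an adhesion molecule (r = 0.987). Tnfrsf11b averaged 11.4 ± 0.5 normalised FPKM in JQ1 plus PDGF 24 h cells and 108 ± 8.3 in PDGF 24 h cells (SD, n = 3 each). After median centring the 9 correlations lay between 0.940 and 0.988.

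The rest of the prostanoid pathway was followed through 39 further genes, of which 20 passed the filter and 9 were listed at 0 in all 14 libraries. Upstream, Pla2g4a, the cytosolic phospholipase that releases arachidonic acid, averaged 17.7 ± 3.4 normalised FPKM in PDGF 2 h cells and 41.9 ± 3.2 in PDGF 24 h cells, against 10.8 ± 1.4 in unstimulated cells (SD, n = 3, 3 and 2). It rose by 0.65 ± 0.19 at 2 h (log2, SE; limma adjusted p = 0.0174) and by 1.86 ± 0.19 at 24 h (limma adjusted p = 2.68e-06). Slco2a1, the prostaglandin uptake transporter, averaged 3.07 ± 1.24 normalised FPKM in PDGF 2 h cells and 16.4 ± 0.4 in PDGF 24 h cells, against 0.377 ± 0.039 in unstimulated cells (SD, n = 3, 3 and 2). It rose by 1.52 ± 0.25 at 2 h (log2, SE; limma adjusted p = 0.000297) and by 3.66 ± 0.25 at 24 h (limma adjusted p = 4.64e-08). Like Ptgs1, it was highest in PDGF 24 h cells. Its unstimulated libraries had 0.350 to 0.405 normalised FPKM and its JQ1 plus PDGF 2 h libraries 0.359 to 0.437, all under 1. Slco2a1 thus passed the filter only through the groups where it was higher. Each of its differences printed here involves a group that admitted it to testing.

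At 2 h with PDGF, 17.7% of all genes tested rose and 12.7% fell. Of the 20 tested pathway genes, 2 rose and 2 fell. Those that fell were Pla2g4b, another cytosolic phospholipase, at -1.11 ± 0.34 (log2, SE; limma adjusted p = 0.0234), and Zadh2, a prostaglandin reductase, at -0.76 ± 0.21 (log2, SE; limma adjusted p = 0.013). At 24 h against 0 h 8 rose and 0 fell, where 37.7% of all genes rose and 4.85% fell. After median centring, 5 of the pathway genes rose and 4 fell, and of all genes tested fewer rose and more fell than before it. The 8 include Abcc4, a prostaglandin exporter, at 1.40 ± 0.29 (log2, SE; limma adjusted p = 0.00147), and the lysosomal phospholipase Pla2g15 at 0.95 ± 0.19 (log2, SE; limma adjusted p = 0.00132). Between 24 h and 2 h 11 rose and 2 fell, or 9 and 5 after median centring. Among those that rose were Slco2a1 at 2.14 ± 0.22 and Pla2g4b at 1.50 ± 0.31 (log2, SE). Of all genes tested, 44.5% rose and 11.8% fell between these times before centring, and after it fewer rose and more fell. The pathway medians were -0.06, 0.38 and 0.72 (log2) for PDGF 2 h against 0 h, 24 h against 0 h and 24 h against 2 h, beside 0.01, 0.41 and 0.39 for all genes tested.

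With JQ1 at 2 h, 8 of the 20 fell and 1 rose, or 4 and 4 after median centring. Of all genes tested, 34% fell and 7.24% rose before centring. After it fewer fell and more rose, so these shares belong to the counts before centring. Slco2a1 averaged 0.396 ± 0.039 normalised FPKM in JQ1 plus PDGF 2 h cells and 3.07 ± 1.24 in PDGF 2 h cells (SD, n = 3 each), a log2 difference of -1.50 ± 0.22 (SE; limma adjusted p = 0.0001). Pla2g4a fell by 1.20 ± 0.17 (log2, SE; limma adjusted p = 6.76e-05) and the calcium-independent phospholipase Pla2g6 fell by 1.19 ± 0.24 (limma adjusted p = 0.000966). Lta4h, of the leukotriene branch, was the 1 gene that rose, by 0.37 ± 0.14 (log2, SE; limma adjusted p = 0.0394), and is named after its value was seen. The pathway median was -0.45 (log2), beside -0.29 for all genes.

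With JQ1 at 24 h, 8 of the 20 fell and 2 rose, or 5 and 8 after median centring. Of all genes tested, 48.5% fell and 4.61% rose before centring. After it fewer fell and more rose, so these shares belong to the counts before centring. Slco2a1 averaged 2.11 ± 0.47 normalised FPKM in JQ1 plus PDGF 24 h cells and 16.4 ± 0.4 in PDGF 24 h cells (SD, n = 3 each), a log2 difference of -2.49 ± 0.22 (SE; limma adjusted p = 2.43e-07). Ptgfrn, a membrane protein that inhibits the prostaglandin F receptor, averaged 11.0 ± 1.8 in JQ1 plus PDGF 24 h cells and 65.6 ± 1.7 in PDGF 24 h cells, and fell by 2.48 ± 0.14 (log2, SE; limma adjusted p = 1.5e-09). Pla2g6 fell by 1.45 ± 0.24 (log2, SE; limma adjusted p = 0.000105). The pathway median was -0.33 (log2), beside -0.48 for all genes, and 0.04 after median centring.

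**Figure D4:**
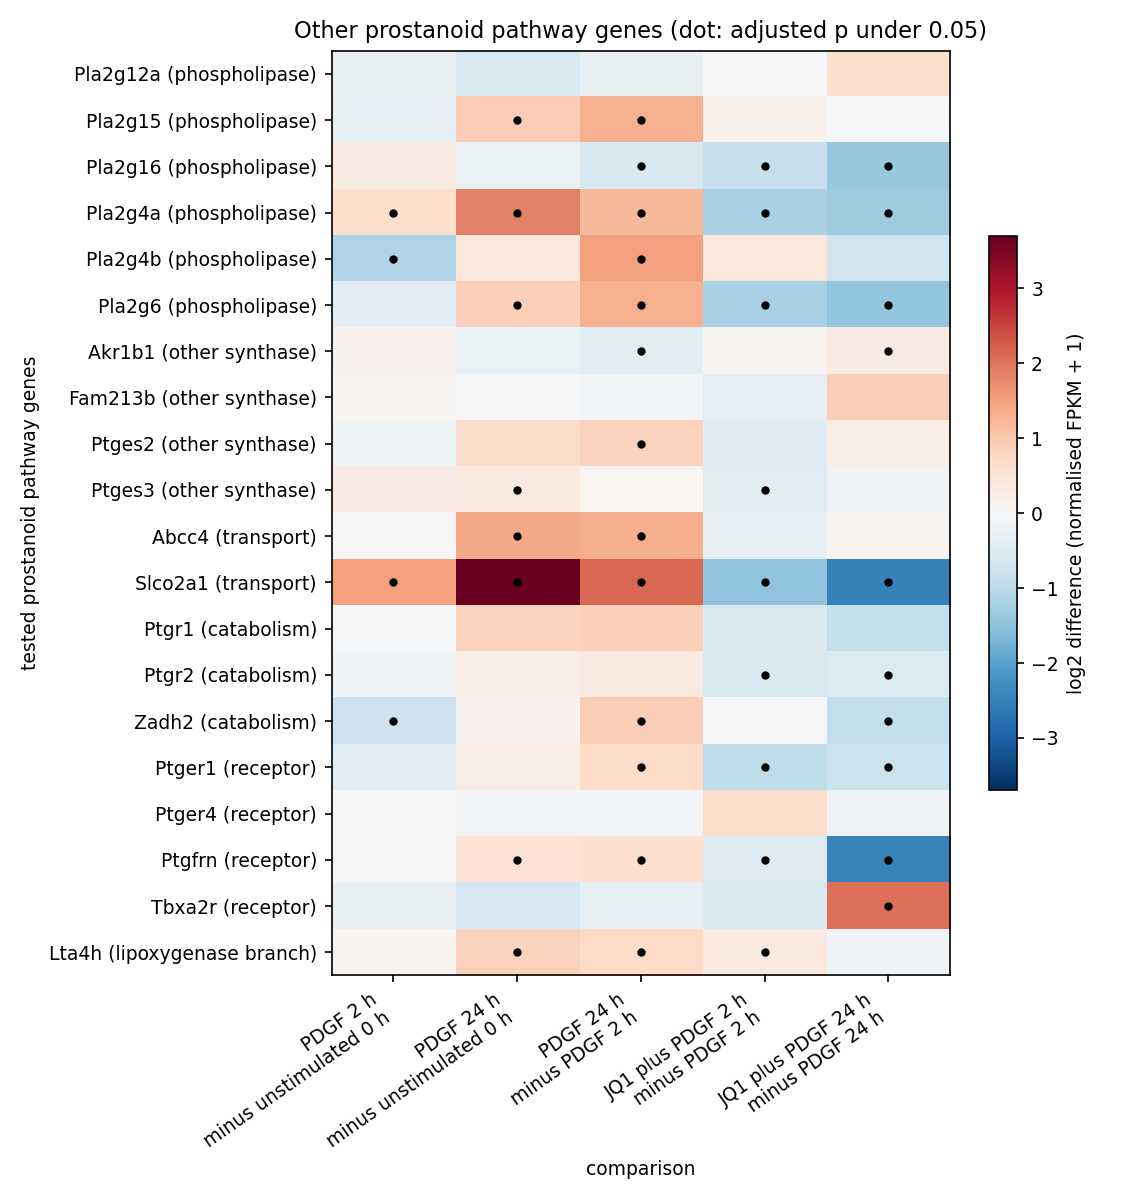
Log2 differences (limma, normalised scale; red higher, blue lower) of the 20 tested pathway genes, rows grouped by role, in 5 comparisons, columns; dots mark limma adjusted p under 0.05. Slco2a1 runs from 3.66 in PDGF 24 h against 0 h to -2.49 in JQ1 plus PDGF 24 h against PDGF 24 h, and Tbxa2r stands at 2.03 in that last comparison.

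Among the receptors, Tbxa2r, the thromboxane receptor, rose with JQ1 at 24 h. It averaged 11.4 ± 1.6 normalised FPKM in JQ1 plus PDGF 24 h cells, against 2.08 ± 0.73 in PDGF 24 h cells (SD, n = 3 each), and 3.72 ± 1.03 in unstimulated cells (SD, n = 2). The log2 difference from PDGF 24 h was 2.03 ± 0.23 (SE; limma adjusted p = 3.11e-06), and 2.49 after median centring (limma adjusted p = 1.22e-06). At 2 h it averaged 1.63 ± 0.22 in JQ1 plus PDGF cells and 2.88 ± 0.80 in PDGF cells (SD, n = 3 each; log2 difference -0.54 ± 0.23, limma adjusted p = 0.0764). The 1 other pathway gene that rose at 24 h was Akr1b1, a reductase with prostaglandin F synthase activity, by 0.30 ± 0.11 (log2, SE; limma adjusted p = 0.0278), named after its value was seen.

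Ptger1, a prostaglandin E receptor, averaged 4.90 ± 2.57 normalised FPKM in JQ1 plus PDGF 2 h cells and 9.77 ± 2.81 in PDGF 2 h cells (SD, n = 3 each), and fell by 0.95 ± 0.29 (log2, SE; limma adjusted p = 0.0153). At 24 h it fell by 0.78 ± 0.29 (log2, SE; limma adjusted p = 0.0314). After median centring neither decrease passed, at -0.68 (limma adjusted p = 0.0615) and -0.27 (limma adjusted p = 0.444). Ptger4, another prostaglandin E receptor, averaged from 0.344 to 1.47 normalised FPKM in the 5 groups and passed in 0 of the 8 comparisons on the normalised scale. For JQ1 plus PDGF 2 h against PDGF 2 h its log2 difference was 0.64 ± 0.26 (SE; limma adjusted p = 0.0635), but after median centring it was 0.89 and passed (limma adjusted p = 0.0123). Against unstimulated cells the centred difference of JQ1 plus PDGF 2 h was 0.85 and passed too (limma adjusted p = 0.0213). Ptger4 reached 1 FPKM only in JQ1 plus PDGF 2 h cells, so it passed the filter through that group alone. Both centred calls are increases in the group that admitted it to testing. Ptgir, the prostacyclin receptor, was above 0 in 6 of 14 libraries with a highest unnormalised FPKM of 0.400. Ptgfr, the prostaglandin F receptor, reached 0.701 and Ptger3, a prostaglandin E receptor, 0.724, whereas Ptger2 was listed at 0 throughout. Hpgd, which inactivates prostaglandins, was also listed at 0 in all 14 libraries.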

How the data were processed

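Per the labels' protocols, a stranded kit was used on polyadenylated RNA, and the 14 libraries were sequenced from 1 end (40 bases). The submitters' processing notes name HISAT, Cufflinks 2.0.0 and build rn6. The annotation and the way of normalising were not given in the sources used here. Unnormalised FPKM and normalised FPKM of 17312 genes and 92 spike-ins were deposited by the authors, each library in its own column. From the values, the normalised table adds about 0.1 and then adjusts each library by a curve that aligns the spike-ins. Per the labels, the spike-in dose followed the RNA amount of a set cell number. Columns were grouped by name. They carry digits where titles carry letters, so libraries are named by digit, and 0 columns lacked a group. Some letters recur between groups, and none is shared between titles with and without JQ1, so a batch marked by them and JQ1 cannot be told apart. The labels do not say whether replicates were separate cultures, so p-values measure the spread between these libraries, which may be technical.

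FPKM are not counts and depth is unknown, so no count model or counting interval was used. Genes that reached a normalised FPKM of 1 in 2 or more libraries entered limma 3.58.1 (R 4.3.3) on log2(normalised FPKM + 1), in 1 model over 5 groups with 9 residual degrees of freedom and a mean trend, two-sided with Benjamini-Hochberg adjustment. Ratios were tested by exact permutation (SciPy 1.17.1). Median centring divided unnormalised FPKM by size factors, with 9980 genes tested. These factors ran from 1.015 to 1.024, so centred values are close to the unnormalised FPKM, which lack the spike-in adjustment. The code was tested on simulated data. The members, lists and tests were chosen with earlier results of these data known. Named pathway genes were the 4 with the largest absolute differences among those past the threshold in each comparison, plus 7 receptors and Hpgd; not every one is printed with each comparison. Promoters are from RefSeq (GRCr8, 3 of 4 genes matched). Alternatives were other scales, pseudocounts, filters and samples. Protein sequences were not used here.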

Additional observations from a re-analysis of the deposited data

Results flagged for a closer look

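The JQ1 effect differed between 24 h and 2 h for 7 genes, each by limma's interaction test (JQ1 difference at 24 h minus that at 2 h, log2). Among the prostaglandin synthesis genes it was -1.26 for Ptgis, -1.28 for Ptgs1 and 0.99 for Ptgs2. The Ptgs1 call was lost with a pseudocount of 0.1 (limma adjusted p = 0.337). The Ptgs2 call held in 14 of 20 alternatives and that of Ptgis in 20 of 20. In the rest of the pathway it was 2.57 ± 0.33 for the thromboxane receptor Tbxa2r (SE; limma adjusted p = 5.39e-05) and -2.01 ± 0.20 for Ptgfrn (SE; limma adjusted p = 4.52e-06). It was -0.99 ± 0.32 for the transporter Slco2a1 (SE; limma adjusted p = 0.0352), and -0.60 after median centring, where it did not pass (limma adjusted p = 0.258). The reductase Zadh2 had -0.82 ± 0.27 (SE; limma adjusted p = 0.0384), likewise not passed after median centring (-0.60; limma adjusted p = 0.0741). On the normalised scale, Tbxa2r and Ptgs2 had positive values and the other 5 negative ones. Of all genes tested, 4.82% had a higher and 17.5% a lower interaction on that scale. After median centring, 4 of the 20 tested pathway genes had a higher and 1 a lower interaction. Gained there were Ptges2 (0.99, limma adjusted p = 0.0427), Ptges3 (0.47, limma adjusted p = 0.0398) and Akr1b1 (0.36, limma adjusted p = 0.0302). More of all genes tested also had a higher interaction after centring.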

How the results depend on the processing

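Each of 24 member differences was recomputed under 20 alternatives, and of 480 values 461 kept both direction and side of the threshold, 11 lost the threshold, 8 gained it and 0 reversed. Median centring gave -0.14 for Ptgs2 with JQ1 at 24 h (limma adjusted p = 0.559), -0.19 for Ptgis in JQ1 plus PDGF 2 h against 0 h (0.0927, lost) and -0.74 for Ptgis in PDGF 24 h against 0 h (4.11e-05, gained). The last also passed without a filter on low values (-0.29; limma adjusted p = 0.0115) and with the compared groups alone (-0.29; limma adjusted p = 0.0359). A pseudocount of 0.1 gave -1.28 for Ptgs1 with JQ1 at 2 h (gained) and -0.80 for its interaction (lost), and a fit without the mean trend gave -0.37 for Ptgs1 with JQ1 at 2 h (gained). The Ptgs2 interaction lost the threshold with no filter (0.99; limma adjusted p = 0.0627) and without PDGF 2 h library 1 and PDGF 24 h library 0 together (0.79). Leaving out 1 library at a time gave -0.75 to -0.45 for Ptgs2 with JQ1 at 24 h, 0.86 to 1.18 for its interaction and -0.32 to -0.25 for Ptgis in PDGF 24 h against 0 h. Of the 14 fits, 2, 4 and 3 changed the call. For Ptgis these were the fits without PDGF 2 h library 0, PDGF 2 h library 2 or JQ1 plus PDGF 24 h library 0 (limma adjusted p = 0.0392 to 0.0449). The log2 ratio of Ptgs2 to Ptgs1 with JQ1 at 2 h ran from -0.35 to 0.11 and was 0.69 in unnormalised FPKM, both reversals of -0.12; without PDGF 2 h library 1 it was 0.03. The cause was not tested.

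Counts of all genes moved most after median centring, the alternative that leaves out the spike-in adjustment. Lower genes numbered 1282 and 1936 after it for PDGF 2 h against 0 h. For PDGF 24 h against 0 h higher genes numbered 3823 and 1478, and lower genes 491 and 1341. For PDGF 24 h against 2 h they were 4510 and 2659 higher, 1193 and 2579 lower. For JQ1 at 2 h they were 734 and 2003 higher, 3449 and 2143 lower, and for JQ1 at 24 h 467 and 2305 higher, 4918 and 2578 lower. Higher genes numbered 1339 and 2557 for JQ1 plus PDGF 2 h against 0 h, and 488 and 1343 for the interaction. Pathway genes with higher and lower interactions numbered 1 and 3, or 4 and 1 after median centring, and 3 rather than 1 were higher in JQ1 plus PDGF 2 h against 0 h. Without PDGF 2 h library 1 and PDGF 24 h library 0, an alternative chosen after seeing the data, lower pathway genes numbered 1 rather than 2 at PDGF 2 h, 1 rather than 0 at 24 h against 0 h, 1 rather than 2 at 24 h against 2 h and 5 rather than 8 with JQ1 at 2 h, and 2 rather than 1 were higher in JQ1 plus PDGF 2 h against 0 h. With no filter, 1 rather than 2 fell at PDGF 2 h and 1 rather than 3 had a lower interaction.

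No paired analysis was possible because the sample titles carry letters, some shared between groups without JQ1 and some between groups with it, but the table columns carry only digits that no label ties to those letters. The digits recur in every group, and nothing states that equal digits mark the same culture or day. With depth unknown, differences of genes near 0, such as Ptges and Ptgs1 at 2 h, were not detectable or turned on the pseudocount. The absence of cells with JQ1 alone means that JQ1 was measured only with PDGF.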
